A study of Mus musculus with 6 samples.

Results

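Interferon-responding T cells are described here in 6 single-cell RNA sequencing libraries of αβ T cells sorted from mouse kidney. A barcode, which stands for 1 captured cell, was selected on its own transcripts: at least 500 detected genes, at most 20% mitochondrial unique molecular identifiers (UMIs, counts of distinct captured RNA molecules), at least 1 UMI over Cd3d, Cd3e and Cd3g, and at least 3 UMIs summed over Ifit1, Ifit3, Ifit3b and Rsad2. These last 4 genes are called the rule genes. The rule found 1432 such cells among 49177 Cd3 barcodes that passed the filters (2.91%, 95% exact Clopper-Pearson interval 2.77% to 3.06%), out of 54039 deposited barcodes. The other 47745 Cd3 barcodes of the same libraries were the comparison.

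The cells came from male wild-type C57BL/6J mice aged 7 to 8 weeks. In the IR group both renal pedicles had been clamped for 30 min and then reperfused (ischemia-reperfusion, IR), and the control group was normal kidney. CD45+ TCRαβ+ cells were sorted by flow cytometry into CD4, CD8 and double negative (DN, CD4- CD8-) T cells, with 1 library per group made with 10x Genomics 3′ chemistry. No group therefore has replicates, no test was run, and every interval covers counting error only. How many mice were pooled per library, and how long after reperfusion these kidneys were taken, is not given in the sources used here.

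Interferons are secreted proteins by which infected or stressed tissue warns neighbouring cells. Type I interferon binds the receptor pair Ifnar1 and Ifnar2, whose kinases Jak1 and Tyk2 phosphorylate STAT transcription factors. These join Irf9 in a complex that enters the nucleus and binds the interferon-stimulated response element in the promoters of interferon-stimulated genes (ISGs), many of which encode proteins that block viral replication. Interferon gamma, which activated T cells and NK cells secrete, acts through its own receptor, and the ISGs of the 2 pathways overlap. Ifit1, Ifit3 and Ifit3b encode tetratricopeptide proteins of the antiviral response, of which Ifit1 binds foreign RNA by its cap, and Rsad2 encodes viperin, a radical SAM enzyme that makes a chain-terminating nucleotide. Isg15 encodes a ubiquitin-like protein, and Cxcl10 a chemokine that attracts Cxcr3-bearing T cells.

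The promoters of 5 genes that carry the pattern are shown first, because the short element read by the interferon-activated complex and by other interferon regulatory factors can be seen in them. Each window holds the 250 bases before the transcription start in the RefSeq table (GRCm38.p6), written 5′ to 3′ on the strand of the gene. Capitals mark matches to GAAANNGAAA, the core of the interferon-stimulated response element, or to its reverse complement TTTCNNTTTC. The windows lie at chr19:34640639-34640888, plus strand (Ifit1), chr19:34583279-34583528, plus strand (Ifit3), chr12:26456453-26456702, minus strand (Rsad2), chr4:156200819-156201068, minus strand (Isg15) and chr5:92348890-92349139, minus strand (Cxcl10).
Ifit1: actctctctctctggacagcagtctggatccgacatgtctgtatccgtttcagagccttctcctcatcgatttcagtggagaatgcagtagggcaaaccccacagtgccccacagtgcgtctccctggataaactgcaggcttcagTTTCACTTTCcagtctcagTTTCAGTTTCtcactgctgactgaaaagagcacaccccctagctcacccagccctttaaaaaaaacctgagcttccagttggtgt
Ifit3: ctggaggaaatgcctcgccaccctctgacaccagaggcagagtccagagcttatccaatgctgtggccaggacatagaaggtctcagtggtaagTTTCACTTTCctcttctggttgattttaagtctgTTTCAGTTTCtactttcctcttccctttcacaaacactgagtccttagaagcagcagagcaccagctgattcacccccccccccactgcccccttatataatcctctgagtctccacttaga
Rsad2: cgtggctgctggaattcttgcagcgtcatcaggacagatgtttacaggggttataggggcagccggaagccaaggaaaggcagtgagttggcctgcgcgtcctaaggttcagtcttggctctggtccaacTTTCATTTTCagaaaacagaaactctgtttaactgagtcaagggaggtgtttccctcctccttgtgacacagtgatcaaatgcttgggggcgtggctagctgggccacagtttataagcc
Isg15: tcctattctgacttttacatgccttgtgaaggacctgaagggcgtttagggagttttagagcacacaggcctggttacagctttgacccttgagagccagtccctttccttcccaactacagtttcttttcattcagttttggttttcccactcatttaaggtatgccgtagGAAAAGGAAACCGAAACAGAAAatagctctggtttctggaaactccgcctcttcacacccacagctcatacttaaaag
Cxcl10: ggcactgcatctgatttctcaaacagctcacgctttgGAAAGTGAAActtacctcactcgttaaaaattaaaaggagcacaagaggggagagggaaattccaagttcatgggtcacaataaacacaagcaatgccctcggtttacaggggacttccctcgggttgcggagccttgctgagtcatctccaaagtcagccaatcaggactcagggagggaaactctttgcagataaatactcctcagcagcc

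Ifit1 held matches beginning 104 and 85 bases before its start, and Ifit3 at 156 and 122 bases, all 4 on the other strand. The 2 ten-base sequences, TTTCACTTTC and TTTCAGTTTC, were the same in both genes and in the same order. Rsad2 held 1 match at 120 bases before its start (TTTCATTTTC). In Isg15, 3 overlapping matches ran head to tail at 78, 72 and 66 bases (GAAAAGGAAA, GAAACCGAAA and GAAACAGAAA). Cxcl10 held 1 match at 213 bases (GAAAGTGAAA). In GENCODE M21 (GRCm38, mm10) the gene bodies lie at chr19:34640871-34650009, plus strand (Ifit1), chr19:34583531-34588731, plus strand (Ifit3), chr12:26442746-26456452, minus strand (Rsad2), chr4:156199424-156200818, minus strand (Isg15) and chr5:92346638-92348889, minus strand (Cxcl10), and all 5 are protein coding.

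The selected cells were found in every sort and in both conditions. They numbered 377 of 9518 Cd3 barcodes in control CD4 (3.96%, 3.58% to 4.37%), 474 of 9685 in control CD8 (4.89%, 4.47% to 5.34%) and 395 of 9309 in control DN (4.24%, 3.84% to 4.67%). In the IR libraries they numbered 100 of 10301 in CD4 (0.971%, 0.791% to 1.18%), 45 of 6413 in CD8 (0.702%, 0.512% to 0.938%) and 41 of 3951 in DN (1.04%, 0.746% to 1.41%). All 3 control shares lay above all 3 IR shares. Within control the CD4 and CD8 intervals did not overlap, and within IR all 3 did. The libraries were not equally deep, however. Other Cd3 barcodes held a median of 7228, 6863 and 8514 UMIs in the CD4, CD8 and DN control libraries and of 2437, 1826.5 and 1520 in IR CD4, CD8 and DN, so that 3 UMIs were easier to reach in a control cell.

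Each barcode was therefore thinned at random to 1000 UMIs, and shallower barcodes (60, 498 and 22 in control, 77, 160 and 313 in IR, for CD4, CD8 and DN) were left out. At this depth 52 of 9458 (0.550%, 0.411% to 0.720%), 40 of 9187 (0.435%, 0.311% to 0.592%) and 43 of 9287 (0.463%, 0.335% to 0.623%) control CD4, CD8 and DN barcodes reached 3 UMIs over the rule genes. In IR the shares were 45 of 10224 (0.440%, 0.321% to 0.589%), 23 of 6253 (0.368%, 0.233% to 0.551%) and 20 of 3638 (0.550%, 0.336% to 0.848%). The 6 intervals all overlapped. The ratio of the IR to the control share was 0.801 (0.538 to 1.19) in CD4, 0.845 (0.506 to 1.41) in CD8 and 1.19 (0.700 to 2.02) in DN, against 0.245, 0.143 and 0.245 without thinning. Counted from 2 rule-gene UMIs at 1000 UMIs it was 0.761 (0.566 to 1.02), 0.517 (0.358 to 0.747) and 0.926 (0.623 to 1.38), so the CD8 interval lay below 1. Thinned to 2000 UMIs the ratios were 0.574 (0.406 to 0.811), 0.553 (0.336 to 0.912) and 0.846 (0.412 to 1.74), but 2930 IR CD4, 3871 IR CD8 and 3002 IR DN barcodes were then too shallow to enter, by the count for the rule genes. Counted from 1 rule-gene UMI at 1000 UMIs, the shares were 4.23%, 5.75% and 3.98% in control and 2.62%, 2.53% and 3.13% in IR. Most of the unthinned gap between conditions was thus not seen at equal depth, but lower shares remained under some settings: in all 3 IR sorts from 1 rule-gene UMI, in IR CD8 from 2 and from 5 (a ratio of 0.184, 0.0422 to 0.798), and in IR CD4 and IR CD8 at 2000 UMIs. The ratio from 5 rests on only 2 of 6253 IR CD8 barcodes, against 16 of 9187 in control CD8. The file headers also name different Cell Ranger versions for control and IR, and the condition and the version in the headers cannot be told apart.

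**Figure D1:**
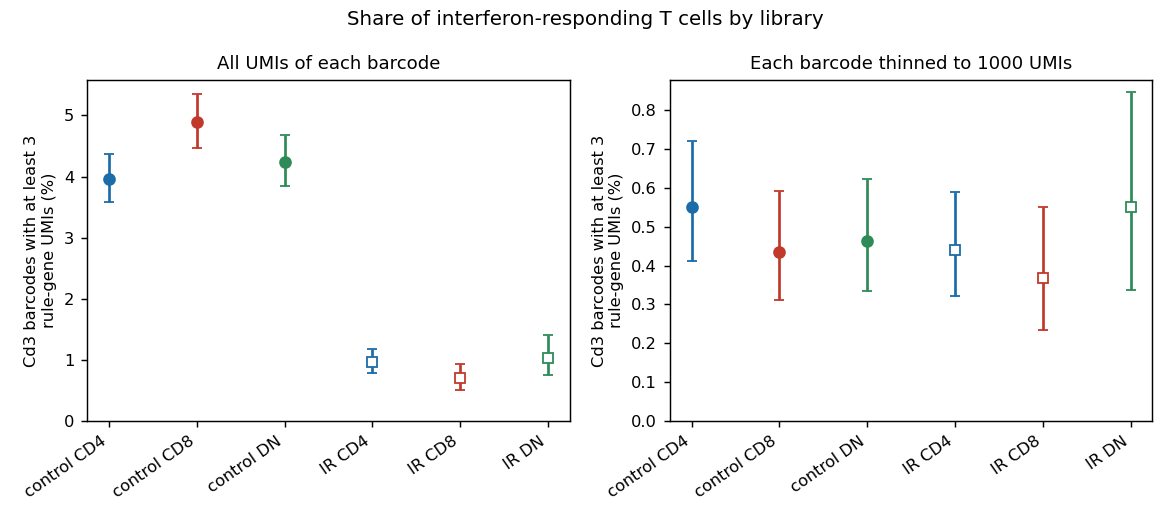
Share of Cd3 barcodes (percent) with at least 3 rule-gene UMIs in each library, from all UMIs of a barcode and after thinning to 1000 UMIs, with exact 95% Clopper-Pearson intervals (counting error only). The control shares of 3.96% to 4.89% and the IR shares of 0.702% to 1.04% come to 0.435% to 0.550% and 0.368% to 0.550% at equal depth.

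How far above the threshold a cell stood varied widely. Of the 1432 cells, 430 held exactly 3 rule-gene UMIs, 758 held 5 or more and 304 held 10 or more, and the median was 5 in control CD4, CD8, DN and IR CD4 and 4 in IR CD8 and DN. The most in a cell was 93, 129 and 96 in the CD4, CD8 and DN control libraries and 20, 17 and 20 in IR. Just outside the rule stood 1040 barcodes with 2 UMIs, followed by 3817 with 1 and 42888 with 0. At least 2 of the 4 genes were detected in 1210 of the selected cells, all 4 in 244, and a single one in 222. Cells of the highest UMI counts, among which doublets (2 cells under 1 barcode) are expected, were more frequent among the selected, and were kept by the rule: 168 were among the 5% deepest barcodes of their library. That share ran from 9.11% to 13.3% of selected cells over the libraries, against 4.91% to 5.97% of the others. A barcode sequence recurring in another library was held by 598 Cd3 barcodes, 20 of them selected.

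The levels of the rule genes follow from the choice and are given as a description. All levels are CPM, the summed UMIs of a gene scaled to the same total in each group of cells, over features without mitochondrial genes, ribosomal protein genes and Malat1. Ifit1 stood at 493, 347 and 490.5 CPM in the selected CD4, CD8 and DN cells of control and at 888, 1566 and 1502 CPM in the IR ones, in the same order, against 14, 13.4 and 12.9 and 13.3, 15 and 13.9 in the others. Ifit3 stood at 387, 424 and 409 in control and 1137, 1302 and 1254 in IR, against 7.46, 18.3 and 6.13 and 9.22, 15.8 and 9.68. Ifit3b, whose sequence is close to that of Ifit3 so that the 2 may share reads, stood at 134, 110.4 and 127 and 376, 248 and 480.0. Rsad2 stood at 157, 107 and 124 in control and 285, 341 and 279 in IR against 2.76, 2.17 and 1.95 and 3.06, 3.82 and 4. Ifit1 was found in 78% to 88.9% of the selected cells of a library and Rsad2 in 29.3% to 42.2%. Selected cells held 69.9%, 66.3%, 72.4%, 54.8%, 44.8% and 61.0% of the UMIs of the 4 genes in control CD4, CD8, DN and IR CD4, CD8, DN. Every nucleated cell type can express these genes, so no type in the gate gave a level of free RNA to set beside these shares.

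Because few UMIs fixed the choice, the UMIs of each cell were also divided at random into 2 sets, with cells chosen on the first and read on the second. Chosen in this way were 203, 248 and 207 control cells and 55, 15 and 18 IR cells (CD4, CD8, DN). In the unused UMIs, Ifit1 was higher than in other cells by 4.83, 4.19 and 5.00 on the log2 scale in control and by 5.47, 5.47 and 6.55 in IR. Ifit3 was higher by 5.57, 4.39 and 5.89 in control and by 6.36, 5.28 and 5.83 in IR. A second reading of the same genes in the same cells thus gave higher levels in every library, on 14 Ifit1 and 11 Ifit3 UMIs in IR CD8. It follows from a choice made on these genes and is given as a description only.

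Beyond the rule genes, the terms higher and lower stand for pooled levels at least 2-fold apart in a gene that met a count floor: 20 UMIs in the selected cells, observed or expected from the level of the others. This contrast is the one the rule made, so the counts describe it and nothing is read from them. The list of ISG effectors outside the rule held 56 genes with antiviral or ISG-associated products, of which 54 were measured. Mx1 and Mx2 were not analysed here. Of the 53, 51 and 52 list genes at the floor in control CD4, CD8 and DN, 50, 45 and 48 were higher, against 1.90%, 1.22% and 1.46% of all genes at the floor. In IR CD4, CD8 and DN, 42 of 42, 23 of 23 and 28 of 29 were higher, against 6.68%, 12.5% and 11.5% of all genes. None of the list was lower in any library, against 0.707%, 0.409% and 0.362% of all genes in control and 1.47%, 4.98% and 1.98% in IR. Many genes met the floor in IR only through their level in the selected cells. Of those that met it by the level of the others alone, 41 of 44, 39 of 45 and 42 of 46 were higher in control and 12 of 12, 4 of 4 and 2 of 3 in IR. The median log2 ratio of list genes at the floor was 2.01, 1.60 and 1.84 in control and 3.12, 2.56 and 2.98 in IR, beside -0.06, -0.04, -0.05, -0.06, -0.00 and 0.01 over all genes at the floor.

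Isg15 had the largest median ratio of the list genes at the floor in at least 4 libraries. It reached 606, 521 and 622 CPM in the selected CD4, CD8 and DN cells of control and 2686, 2309.8 and 2539 CPM in IR, against 46, 52.6 and 43.8 and 78.5, 91.5 and 74.3 CPM in the others, a log2 ratio of 3.72, 3.31 and 3.83 in control and 5.10, 4.66 and 5.09 in IR. Thinned to 1000 UMIs, an Isg15 UMI was seen in 31.8%, 28.8% and 31.1% of selected control cells and in 70.7%, 65.9% and 71.1% of IR ones (unthinned 75.9%, 71.5%, 77.5%, 81.8%, 84.1% and 81.6% of the same cells). In the other cells at that depth the share was 3.39%, 4.27% and 3.26% in control and 4.21%, 3.87% and 4.33% in IR. Isg15 was thus about as frequent in the other cells of every library, whereas the selected IR cells, chosen from shallower libraries, held more of it per UMI than the selected control cells. Ifi27l2a, an interferon-induced membrane protein gene, stood at 1839.7, 1440.0 and 1359 CPM in control and 5409, 4573 and 3592 CPM in IR against 619, 546 and 435 and 1377, 949 and 456. Bst2 encodes tetherin, which holds budding virions on the cell surface. It stood at 537, 485 and 453 CPM in control and 2134, 1736 and 1657 in IR, against 109, 142 and 90.5 and 189.8, 234 and 156.

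Slfn5, Isg20, Rtp4 and Rnf213 had lower ratios than Isg15 in each of the 6 libraries. Slfn5, of the Schlafen family, had a log2 ratio of 3.07, 3.08 and 2.66 in control and 4.31, 4.56 and 4.28 in IR. Isg20, a 3′ to 5′ exonuclease, had 2.43, 2.52 and 2.39 and 3.54, 4.39 and 3.39. Rtp4, a receptor transport protein, had 2.46, 2.34 and 2.56 and 3.31, 3.50 and 4.14, and Rnf213, a large E3 ubiquitin ligase, had 2.63, 1.89 and 2.40 and 3.51, 3.15 and 3.60. All 4 genes were at least 2-fold higher in 6 of 6 libraries, and each ratio in IR CD4 exceeded that in control CD4. Usp18, which removes Isg15 from proteins and restrains signalling at Ifnar2, stood at 121, 98.6 and 113 CPM in control and 267, 217 and 201 in IR against 13.2, 16 and 10.7 and 8.88, 9.7 and 6.95, with 14 and 13 UMIs in the selected IR CD8 and DN cells. Cmpk2, a nucleotide kinase whose gene neighbours Rsad2, had a log2 ratio of 3.87, 3.39 and 3.98 in control and of 5.40 in IR CD4, and 9 and 7 UMIs in IR CD8 and DN.

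Ifitm3, a membrane protein that blocks viral entry, differed between sorts. It stood at 63.2, 8.75 and 63 CPM in the selected CD4, CD8 and DN cells of control and at 634, 93 and 387 CPM in IR, the IR CD8 value resting on 6 UMIs, against 6.12, 1.15 and 8.11 and 14.8, 8.2 and 14.3 in the others. CD8 cells held the least in both conditions, selected or not. At the low end of the list, Epsti1 had log2 ratios of 0.67, 0.30 and 0.55 in control and 1.54, 1.16 and 1.21 in IR, and Ly6c2, a surface antigen of memory-type T cells, had 0.32, 0.37 and 0.38 in control and 1.26, 1.62 and 0.82 in IR. Epsti1 stood at 805, 1472 and 777 CPM in the other control cells. The largest ratios of the list in control were those of Ifi204, a nucleic acid sensor family gene, at 27.9, 6.18 and 39.3 CPM in control against 0.538, 0.254 and 0.227, with 82, 24 and 139 UMIs spread over 39, 13 and 51 selected cells, and with 11, 0 and 14 UMIs in IR.

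**Figure D2:**
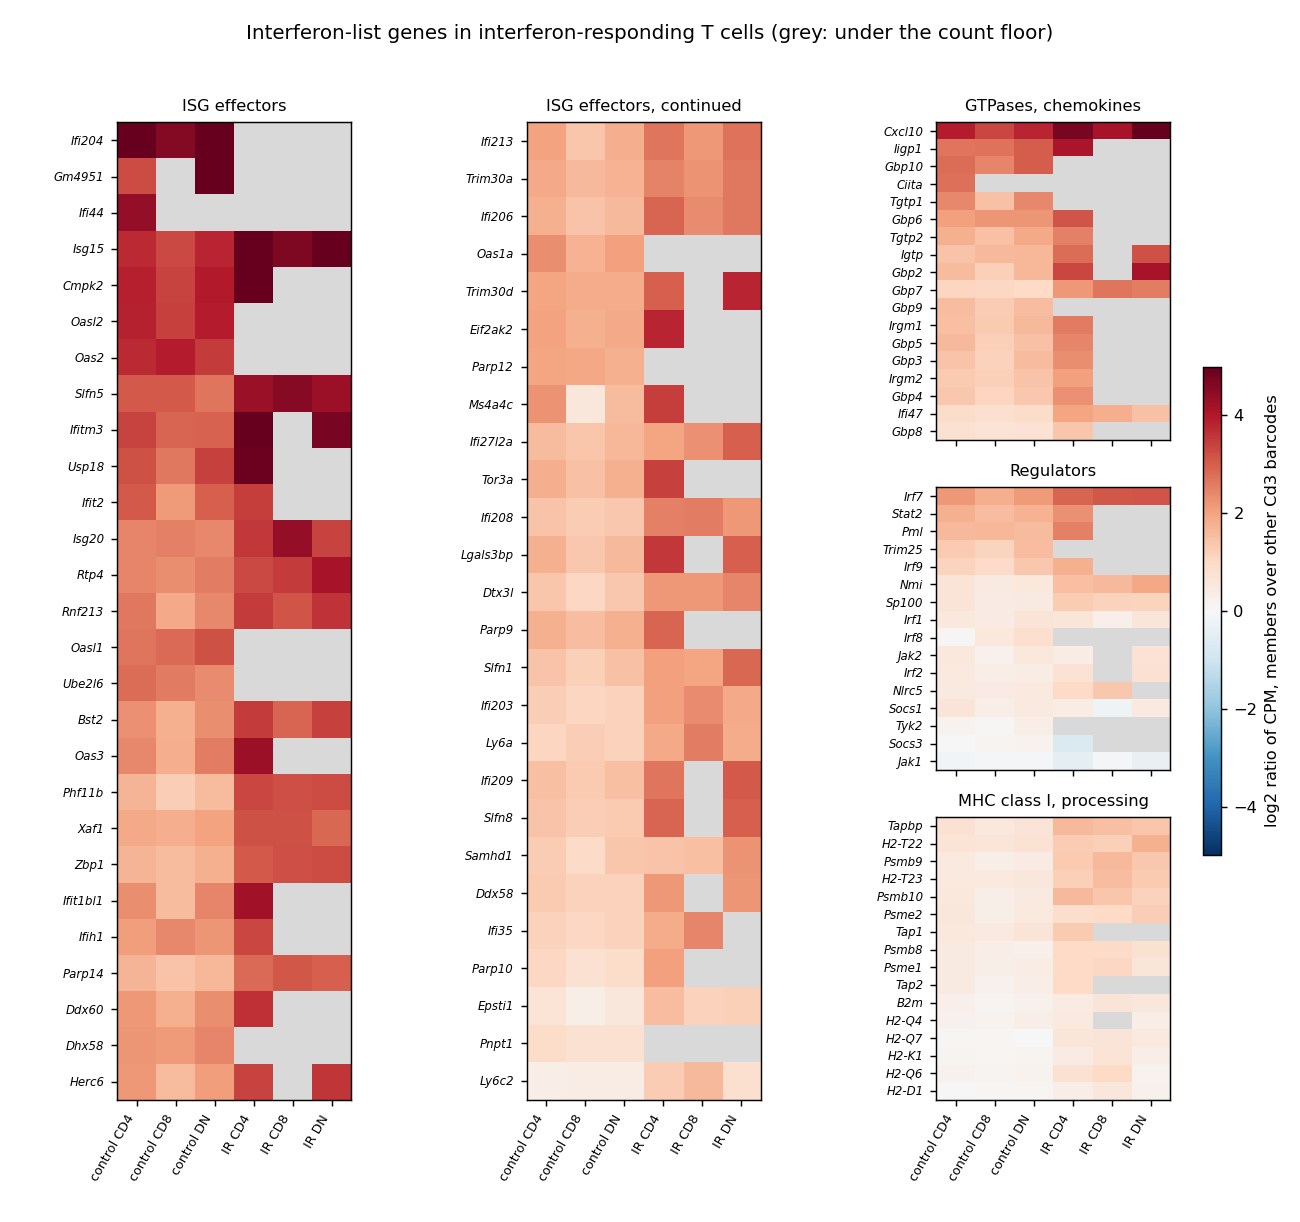
Log2 ratio of the pooled level in selected cells (members) over that in the other Cd3 barcodes of the same library (colour, darkest at 5 and beyond) for ISG effectors, GTPases and chemokines, regulators and MHC class I genes (rows) in the 6 libraries (columns), with grey where a gene was under the count floor. Isg15 runs from 3.31 to 5.10 and B2m from 0.15 to 0.64, and grey is most frequent in IR CD8 and IR DN.

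Among 17 genes of interferon signalling and its regulators, 6 of 17, 5 of 17 and 6 of 17 were higher in the CD4, CD8 and DN control libraries and 8 of 14, 5 of 8 and 4 of 9 in IR, against 1.90%, 1.22% and 1.46% of all genes in control and 6.68%, 12.5% and 11.5% in IR. Their median log2 ratio was 0.63, 0.43, 0.53, 1.13, 1.26 and 0.76, and none was lower. Those that moved most were themselves ISGs. Irf7, the factor that amplifies type I interferon production, stood at 208, 186 and 224 CPM in control and 494, 481 and 588 CPM in IR against 46, 53.4 and 51.5 and 66.2, 55.6 and 66.9, a log2 ratio of 2.18, 1.80 and 2.12 and 2.90, 3.11 and 3.14. Stat2 had log2 ratios of 1.77, 1.53 and 1.73 in control and 2.27 in IR CD4, and Irf9 1.10, 0.96, 1.36 and 1.77 in the same libraries. Irf1, a factor induced by interferon gamma, had smaller ratios of 0.53, 0.40 and 0.66 in control and 0.61, 0.26 and 0.60 in IR. The kinase Jak1 had -0.12, -0.07 and -0.06 in control and -0.44, -0.04 and -0.35 in IR. Of the feedback inhibitors, Socs1 had 0.66, 0.32 and 0.50 in control and 0.37, -0.21 and 0.48 in IR, and Socs3 -0.00, 0.16 and 0.16 in control and -0.72 in IR CD4. In cells chosen at 1000 UMIs, 13, 12 and 14 of 15 list genes were higher in control, with medians of 1.48, 1.54 and 1.78. In IR it was 6 of 10, 1 of 2 and 2 of 3, with medians of 1.23, 1.55 and 1.76. Of all genes in those cells, 6.66%, 6.81% and 7.65% were higher in control and 13.3%, 18.7% and 18.2% in IR. In IR CD4, 1 of 10 was lower, against 2.96% of all genes.

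The receptors were not among the genes past 2-fold in the cells chosen on all UMIs. Of 6 interferon receptor genes, 0 of the 5, 5 and 4 at the floor in control and 0 of the 2, 1 and 1 in IR were past 2-fold in either direction. Of all genes at the floor, 1.90%, 1.22% and 1.46% were higher and 0.707%, 0.409% and 0.362% lower in control. In IR 6.68%, 12.5% and 11.5% were higher and 1.47%, 4.98% and 1.98% lower. Nothing is read from a count of 0 among so few genes. Ifngr1, the ligand-binding chain for interferon gamma, stood at 718, 588 and 1161 CPM in selected control cells and 802, 496 and 1115 CPM in IR, with log2 ratios of -0.28, -0.25 and -0.11 and of -0.15, -0.06 and -0.19. Ifnar2 had -0.02, -0.06 and -0.13 in control and 0.01 in IR CD4, and Ifnar1 0.11, -0.06 and -0.07 in control. In cells chosen at 1000 UMIs, 1 of 4 was lower in control DN (Ifnar2, -1.03), with a list median of -0.39, where 3.80% of all genes were lower.

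Transcripts of type I or type III interferon were not detected in the selected cells. Over 13 such genes the 1432 cells held 0 UMIs (with 3 cells taken as the limit that a count of 0 allows, up to 0.209% of cells with a UMI), and the other 47745 Cd3 barcodes held 14. Ifng, the gene for interferon gamma, was expressed in both. Its level was 428, 328 and 469 CPM in the selected CD4, CD8 and DN cells of control and 788, 651 and 759 CPM in IR, with log2 ratios of -0.06, 0.03 and -0.01 in control and of 0.30, 0.76 and -0.40 in IR. It passed 2-fold in none of the 6 libraries.

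Genes most often linked to interferon gamma (guanylate-binding proteins, immunity-related GTPases and Cxcr3 ligands) were part of the pattern. The list held 20 genes, of which 19 were measured, Cxcl11 not being analysed here. Higher were 16 of the 18, 15 of 17 and 15 of 17 at the floor in the CD4, CD8 and DN control libraries, and 14 of 14, 3 of 3 and 5 of 5 in IR, against 1.90%, 1.22% and 1.46% of all genes in control and 6.68%, 12.5% and 11.5% in IR. By the others alone 1, 0 and 0 met the floor in IR, so that nearly all of these IR genes were counted because they were high in the selected cells. The median log2 ratio was 1.57, 1.28 and 1.61 in control and 2.48, 2.68 and 3.17 in IR. Among cells chosen at 1000 UMIs, 16 of 16, 17 of 17 and 17 of 17 were higher in control. The control medians were then larger, at 2.82, 2.93 and 3.18. In IR it was 9 of 9, 1 of 1 and 1 of 1, with medians of 3.096, 4.47 and 5.49. Of all genes in those cells, 6.66%, 6.81% and 7.65% were higher in control and 13.3%, 18.7% and 18.2% in IR. The genes at the floor differ between libraries, so these medians are not compared between conditions. Gbp2, a GTPase that attacks the vacuoles of intracellular microbes, had 168, 115 and 152 CPM in control and 263, 171 and 387 in IR against 55.8, 49.8 and 48.5 and 25.8, 26.8 and 22.3. Iigp1, an immunity-related GTPase, had 321, 69.7 and 196 CPM in control and 376, 139.5 and 248 in IR against 50.1, 10.7 and 23.9 and 21.9, 10.2 and 7.58, with 9 and 16 UMIs in the selected IR CD8 and DN cells. Control CD4 and DN cells thus held more Iigp1 than control CD8 cells, selected or not.

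Cxcl10 was the chemokine of the list that T cells held. It stood at 429.7, 259 and 316 CPM in selected control cells and 1078, 806 and 1208 CPM in IR against 28.3, 25.3 and 22.3 and 40.1, 46.6 and 24, a log2 ratio of 3.92, 3.35 and 3.82 and 4.75, 4.11 and 5.65. The transcript was concentrated in few cells. At 1000 UMIs it was seen in 10.1%, 7.40% and 7.09% of selected control cells and in 30.3%, 27.3% and 34.2% of IR ones (unthinned 22.3%, 17.1%, 15.9%, 43.4%, 38.6% and 36.8% of the same cells), and in 0.630% to 1.89% of the others. A single cell held 13%, 23.5% and 11.3% of the Cxcl10 UMIs of the selected control cells and 11.8%, 17.3% and 20.5% of those in IR. Cxcl9, the related ligand induced by interferon gamma, had at most 3 UMIs in the selected cells of any library.

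Antigen presentation by MHC class I, which interferons raise, was higher by less. Of 16 genes, 0 passed 2-fold in each control library, and 8 of 16, 6 of 13 and 6 of 14 did in IR CD4, CD8 and DN. The shares of all genes also differed between the conditions, at 1.90%, 1.22% and 1.46% higher in control and 6.68%, 12.5% and 11.5% in IR. The median log2 ratio was 0.44, 0.28 and 0.35 in control and 1.0, 0.99 and 0.67 in IR. B2m, the light chain of every class I molecule, stood at 3472, 3102 and 3485 CPM in control and 4263, 4573 and 4877 in IR against 2927, 2793 and 2981 and 3226, 2945 and 3282, a log2 ratio of 0.25, 0.15 and 0.23 and 0.40, 0.64 and 0.57. H2-T23, the mouse Qa-1 molecule that NK receptors read, had log2 ratios of 0.48, 0.48 and 0.55 in control and 1.20, 1.55 and 1.32 in IR. Psmb9, a catalytic subunit of the immunoproteasome, had 0.49, 0.28 and 0.43 and 1.31, 1.62 and 1.35, and Tapbp (tapasin), which loads peptides, had 0.75, 0.54 and 0.66 and 1.64, 1.49 and 1.40. For each of these 4 genes the 3 IR ratios lay above the 3 control ratios.

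Since 3 UMIs are a larger share of a shallow cell than of a deep one, levels were also read in the 223 cells that reached 3 rule-gene UMIs at 1000 UMIs, with all their UMIs counted (52, 40 and 43 control, 45, 23 and 20 IR, for CD4, CD8 and DN). Isg15 then stood at 1749.7, 2128 and 2463 CPM in control and 3333, 3292 and 3818 CPM in IR, and Cxcl10 at 1883, 2268 and 2607 CPM in control and 1477, 1097 and 1349.6 CPM in IR. The median log2 ratio of the ISG effectors was 3.05, 2.87 and 3.15 in control, over 52, 46 and 50 genes at the floor, and 3.37, 3.01 and 3.02 in IR, over 36, 15 and 13 genes. That of the MHC class I list was 0.77, 0.77 and 0.84 in control and 0.96, 1.19 and 0.61 in IR, with 3, 5 and 6 of 16 genes past 2-fold in control and 7 of 15, 7 of 10 and 2 of 7 in IR. Of all genes at the floor in these cells, 6.66%, 6.81% and 7.65% were higher in control and 13.3%, 18.7% and 18.2% in IR, and 2.82%, 2.77% and 3.80% and 2.96%, 9.13% and 4.55% were lower. The lists keep different genes in each library, so their medians and counts are not compared between conditions. The order of conditions for Cxcl10 turned from that in cells chosen on all UMIs. In the control CD4 cells chosen in this way, 5 of 5 myeloid markers at the floor (median log2 ratio 4.04) and 1 of 1 NK cell marker (Tyrobp, 3.65) were higher, and their part in these values was not tested.

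Levels were also read by the number of rule-gene UMIs, below the threshold as well as above it. These steps are the rule's own measure, and a pooled level can rise over them through more responding cells or through more transcripts per cell, which cannot be told apart. Over cells with 0, 1, 2, 3 to 4, 5 to 9 and 10 or more rule-gene UMIs, Isg15 stood at 39.5, 68.8, 121, 239, 498 and 1411 CPM in control CD4. It ran from 44.7 to 1365 CPM in control CD8 and from 37.9 to 1751 CPM in control DN over the same steps. In IR CD4 it stood at 63.1, 295, 806, 1809, 2908 and 4918 CPM, in IR CD8 it ran from 70.9 to 4043 CPM and in IR DN from 62.6 to 3763 CPM. Each step was higher than the one before in all 6 libraries, though the last step held only 13, 5 and 6 cells in IR CD4, CD8 and DN. Cxcl10 did not rise at every step in control. In CD4 it stood at 193, 107 and 1271 CPM with 3 to 4, 5 to 9 and 10 or more UMIs, a drop at the middle one. In CD8 and DN it stood at 60.4 and 72.3 CPM with 2 UMIs, lower at 31.6 and 37.6 CPM with 3 to 4, and then at 79.1 and 159 and at 930 and 1137 CPM. Cells with 10 or more rule-gene UMIs, 87, 102 and 91 in number, held 914 of 1265, 853 of 1005 and 889 of 1118 Cxcl10 UMIs of the selected CD4, CD8 and DN control cells.

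**Figure D3:**
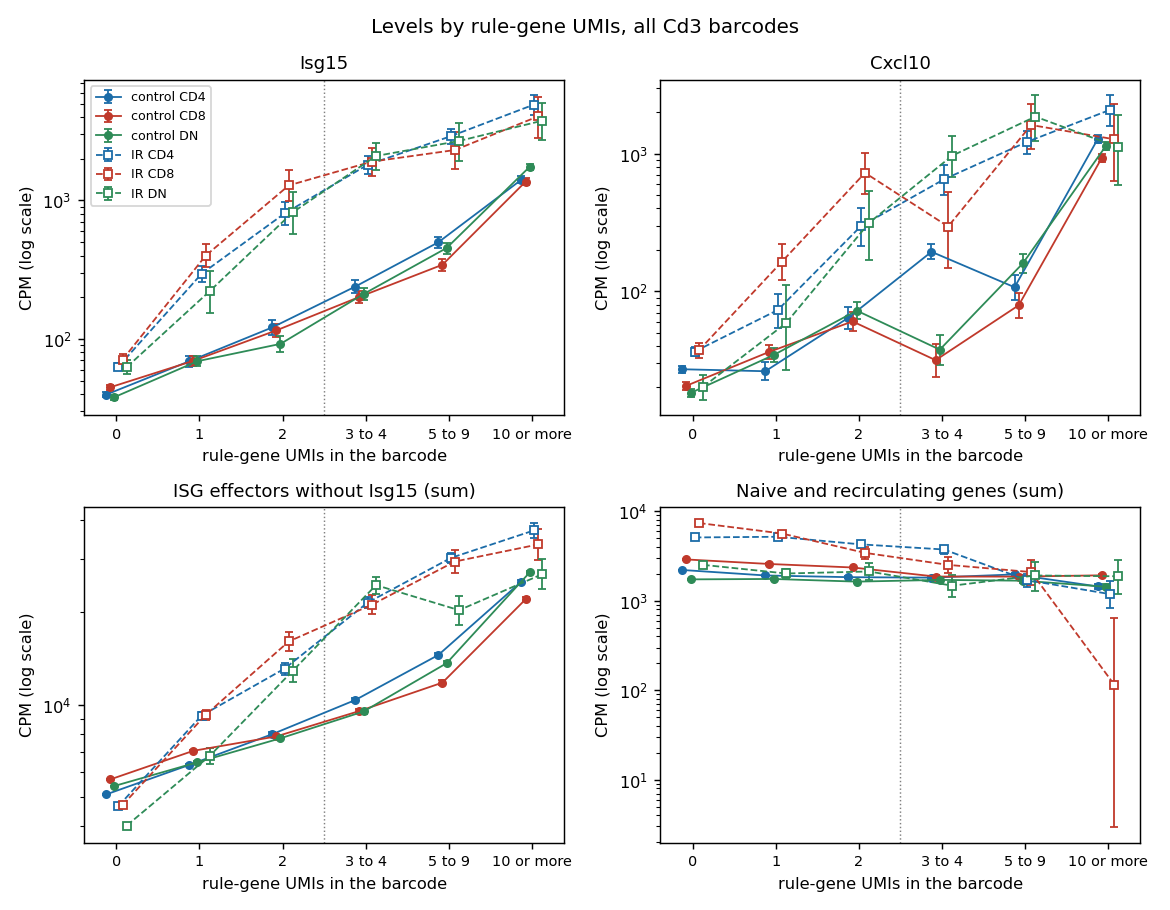
Pooled level (CPM, log axis) of Isg15, Cxcl10, the sum of the other ISG effectors and the sum of naive and recirculating genes, by the number of rule-gene UMIs of a cell, with lines for the 6 libraries, exact 95% Poisson intervals (counting error only) and a dotted line at the threshold. Isg15 climbs at every step in all 6 libraries, from 39.5 to 1411 CPM in control CD4 and from 63.1 to 4918 CPM in IR CD4.

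Genes of naive and recirculating T cells, which patrol blood and lymph nodes, were lower chiefly in IR CD4 and IR CD8 among cells chosen on all UMIs. The list held 10 genes. Among cells chosen at 1000 UMIs, 7 of 9 at the floor were lower in control CD8 as well, where 2.77% of all genes were. On all UMIs, 0 of 10, 2 of 10 and 0 of 7 were lower in the CD4, CD8 and DN control libraries, and 6 of 10, 8 of 8 and 1 of 3 in IR, against 0.707%, 0.409% and 0.362% of all genes in control and 1.47%, 4.98% and 1.98% in IR. None was higher. The median log2 ratio was -0.34, -0.65 and -0.11 in control and -1.08, -1.79 and -0.37 in IR. Weighting the other cells to the depth of the selected ones gave -0.30, -0.66, -0.10, -1.05, -1.74 and -0.37, with 1 of 10 lower in control CD8 and 7 of 10, 8 of 8 and 1 of 3 in IR, where 0.797% and 1.59%, 4.68% and 2.14% of all genes were lower. Without every barcode that held a UMI of another cell type's marker, 0 of 10 were lower in control CD8, with a median of -0.32, 1 of 7 in control DN, with a median of -0.30, and 7 of 8 and 5 of 5 in IR CD4 and CD8, against 0.495%, 0.633%, 2.67% and 6.11% of all genes in the same order. Klf2, the factor that maintains the recirculation program, stood at 334, 517 and 224 CPM in selected control cells and 897, 868 and 341 in IR against 407, 718 and 272 and 1963, 3309 and 842 in the others, so it was below them in 6 of 6 libraries and past 2-fold in 3 of 3 IR libraries. In IR DN this rests on 22 UMIs, and on all UMIs 39% of selected and 35.3% of the other cells held a Klf2 UMI, so there the share did not follow the level. Il7r, the survival receptor for interleukin 7, had log2 ratios of 0.02, -0.61 and 0.15 in control and -0.98, -2.53 and -0.37 in IR. Ccr7, the lymph node homing receptor, stood at 19.4 and 40.1 CPM in control CD4 and CD8 against 31.9 and 83.5, and in IR CD4 and CD8 it stood at 109 and 62 CPM against 238 and 648, the IR CD8 value resting on 4 UMIs. DN cells held little Ccr7 in either group.

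Lef1, a factor of naive T cells, had log2 ratios of -0.35, -0.61 and -0.11 in control and -1.12 and -1.12 in IR CD4 and CD8, and S1pr1, the receptor for exit into blood, had -0.29, -0.68 and -0.22 in control and -1.05 and -1.66 in IR CD4 and CD8. In cells chosen at 1000 UMIs the median of the list was -0.40, -1.27 and -0.33 in control and -1.96, -2.66 and -1.29 in IR, over 6, 9 and 5 genes at the floor in control and 6, 2 and 1 in IR. Lower were then 1 of 6, 7 of 9 and 2 of 5 genes in control and 5 of 6, 2 of 2 and 1 of 1 in IR, against 2.82%, 2.77% and 3.80% of all genes in control and 2.96%, 9.13% and 4.55% in IR. Summed over the list, the level fell with the number of rule-gene UMIs from 5112 CPM at 0 UMIs to 1188 CPM at 10 or more in IR CD4, and from 7414 CPM to 116 CPM (1 UMI in 5 cells) in IR CD8. In control CD4 it went from 2212 to 1449 CPM.

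**Figure D4:**
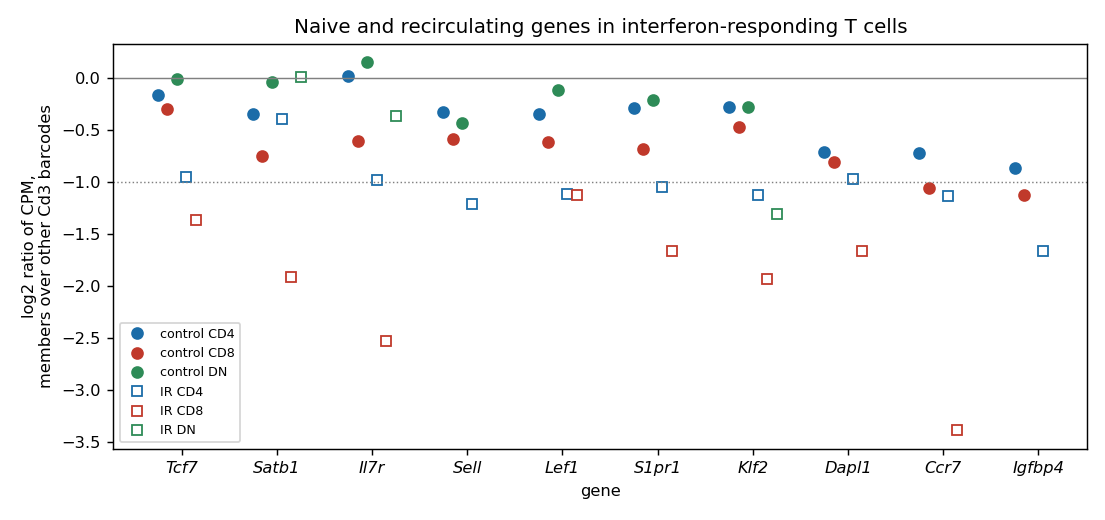
Log2 ratio of the pooled level in selected cells (members) over that in the other Cd3 barcodes of the same library, for genes of naive and recirculating T cells at the count floor, with a point per library and a dotted line at a 2-fold lower level. In IR CD8, Klf2 stands at -1.93, Il7r at -2.53 and Ccr7 at -3.39, below the control points of each gene.

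The cells were also grouped by whether they held a Ccr7 UMI, with both Ccr7 and the rule genes read at 1000 UMIs. In IR CD4, 1 of 1113 barcodes with a Ccr7 UMI reached 3 rule-gene UMIs (0.0898%, 0.00227% to 0.50%), against 44 of 9111 without (0.483%, 0.351% to 0.648%). In IR CD8 it was 1 of 1569 (0.0637%, to 0.355%) against 22 of 4684 (0.470%, 0.295% to 0.710%). In IR both shares with a Ccr7 UMI were below those without, with intervals that overlapped. In the control libraries few barcodes held Ccr7, and 0 of 204 in CD4, an exact upper bound of 1.79%, and 1 of 448 in CD8 (0.223%) reached the rule. By Ifng, the IR CD8 shares were 10 of 891 with a UMI (1.12%, 0.539% to 2.05%) against 13 of 5362 without (0.242%, 0.129% to 0.414%), the IR CD4 shares 18 of 2504 (0.719%) against 27 of 7720 (0.350%), and the IR DN shares 6 of 1428 (0.420%) against 14 of 2210 (0.633%). In control the shares with and without were 0.581% and 0.540% in CD4, 0.480% and 0.426% in CD8 and 0.697% and 0.386% in DN. Of the 6 pairs of intervals, the IR CD8 pair alone did not overlap. Among IR DN cells with a UMI of Fcer1g, an adaptor chain of innate-like lymphocytes, 0 of 442 reached the rule, an exact upper bound of 0.831%, against 20 of 3196 without it (0.626%). In control DN it was 2 of 949 (0.211%) against 0.492%, in control CD4 1 of 88 (1.14%) against 0.544% and in IR CD4 1 of 114 (0.877%) against 0.435%. In control CD8 and IR CD8 it was 0 of 61 and 0 of 60, and the intervals overlapped in all 6 libraries.

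Effector genes were mixed. Higher were 1 of 13, 0 of 13 and 1 of 12 genes at the floor in the CD4, CD8 and DN control libraries and 1 of 8, 3 of 8 and 2 of 6 in IR, against 1.90%, 1.22% and 1.46% of all genes in control and 6.68%, 12.5% and 11.5% in IR. Lower were 0, 1 and 1 in control and 0 in IR, against 0.707%, 0.409% and 0.362% of all genes in control and 1.47%, 4.98% and 1.98% in IR. Gzmb, the granzyme that starts apoptosis in target cells, stood at 23.8, 186 and 156 CPM in control and 426, 636 and 418 in IR against 13.9, 172 and 65.3 and 50.3, 280.3 and 87.4, a log2 ratio of 0.77, 0.11 and 1.26 and 3.08, 1.18 and 2.26. In IR CD4, 52.1% of its 94 UMIs came from 1 cell. At 1000 UMIs a Gzmb UMI was seen in 8.08%, 25% and 13.2% of selected IR CD4, CD8 and DN cells (unthinned 12.1%, 31.8% and 31.6% of them) against 1.99%, 7.07% and 4.61% of the others. Gzma, another granzyme, had lower CPM in control CD8 and DN, with log2 ratios of -1.43 and -1.14, but on all UMIs the share of cells with a Gzma UMI was 12.2% and 6.33% in the selected cells against 9.93% and 4.29% in the others, so level and share went opposite ways. Ccl5, the chemokine RANTES, stood at 27283 CPM in selected IR CD8 cells against 14156 in the others, a log2 ratio of 0.95. Ccl4 in IR DN had a log2 ratio of 3.55, but all 81 UMIs were in 1 cell, and no population-wide difference can be read from it. In cells chosen at 1000 UMIs, 2 of 9, 3 of 13 and 1 of 10 effector genes were higher in control and 0 of 4, 2 of 6 and 1 of 5 in IR (all genes 6.66%, 6.81%, 7.65%, 13.3%, 18.7% and 18.2%). Lower were 0, 3 and 2 and 0, 1 and 1 (all genes 2.82%, 2.77%, 3.80%, 2.96%, 9.13% and 4.55%). Weighted by depth, 1 of 9 was lower in IR CD4, against 1.59% of all genes.

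Other state lists had few genes past 2-fold among the cells chosen on all their UMIs. The T cell receptor complex had 0 genes past 2-fold in every library, with list medians of -0.04, 0.01, -0.06, -0.09, -0.02 and -0.32, and the sort genes were as labelled in each. Tissue residence genes such as Cd69 and Itgae, and coinhibitory receptors such as Pdcd1, also had 0 in every library, the latter with none at the floor in IR. Of all genes at the floor, 1.22% to 1.90% were higher in control and 6.68% to 12.5% in IR. Lower were 0.362% to 0.707% in control and 1.47% to 4.98% in IR, so nothing is read from these counts of 0. In control CD4, 3 of 10 cell cycle genes were lower (Birc5 -2.00, Ccnb2 -1.20 and Mki67 -1.10 on the log2 scale), against 0.707% of all genes. With the other cells weighted to the depth of the selected ones 7 of 10 were, with a list median of -1.44, and 3 of 10 in control CD8, where 1.31% and 0.797% of all genes were lower under that weighting. Of immediate early genes, 3 of 7 were lower in IR CD8 (Jund -1.12, Ier2 -1.08 and Dusp1 -1.25), against 4.98% of all genes, and 0 in the other 5 libraries. Of heat shock genes, 1 of 10 was higher in IR CD4 (Hsph1, 1.02) and 1 of 6 lower in IR CD8 (Dnajb1, -1.09), where 6.68% and 4.98% of all genes were, so nothing is read from either. Of innate-like T cell genes, 1 of 9, 1 of 8 and 1 of 10 were lower in control, 0 of 2 and 0 of 1 in IR CD4 and CD8 and 1 of 2 in IR DN (Klrd1 -1.82), against 0.707%, 0.409% and 0.362% of all genes in control and 1.98% in IR DN. Under the depth weighting it was 1 of 9, 1 of 8 and 0 of 10 in control and 2 of 3 in IR DN (median -1.82), where 0.471% of all genes were lower in control DN and 2.14% in IR DN. In cells chosen at 1000 UMIs, 3 of 5 innate-like genes were lower in control CD4 (median -1.05), 1 of 3 in control CD8 and 5 of 9 in control DN (median -1.40), against 2.82%, 2.77% and 3.80% of all genes in those cells. Immediate early genes were lower there for 4 of 5 in IR CD8 and 2 of 6 in IR DN, against 9.13% and 4.55% of all genes, and 1 of 9 was higher in control DN. Tissue residence genes were higher for 1 of 5 in control CD8, 2 of 6 in control DN and 1 of 1 in IR CD8, against 6.81%, 7.65% and 18.7% of all genes. Coinhibitory genes were lower for 1 of 1 in control DN (-1.76) and 0 of 2 in control CD8, against 3.80% and 2.77% of all genes. Of regulatory T cell genes in the cells chosen on all UMIs, 1 of 5 was higher in control CD8 (Tnfrsf4, 1.01), against 1.22% of all genes, and none in the other 5 libraries. In the cells chosen at 1000 UMIs it was 0 of 3 in control CD8 and 2 of 4 in control DN (median 0.71), against 7.65% of all genes there, and 1 of 4 and 1 of 3 were lower in control CD4 and CD8.

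**Figure D5:**
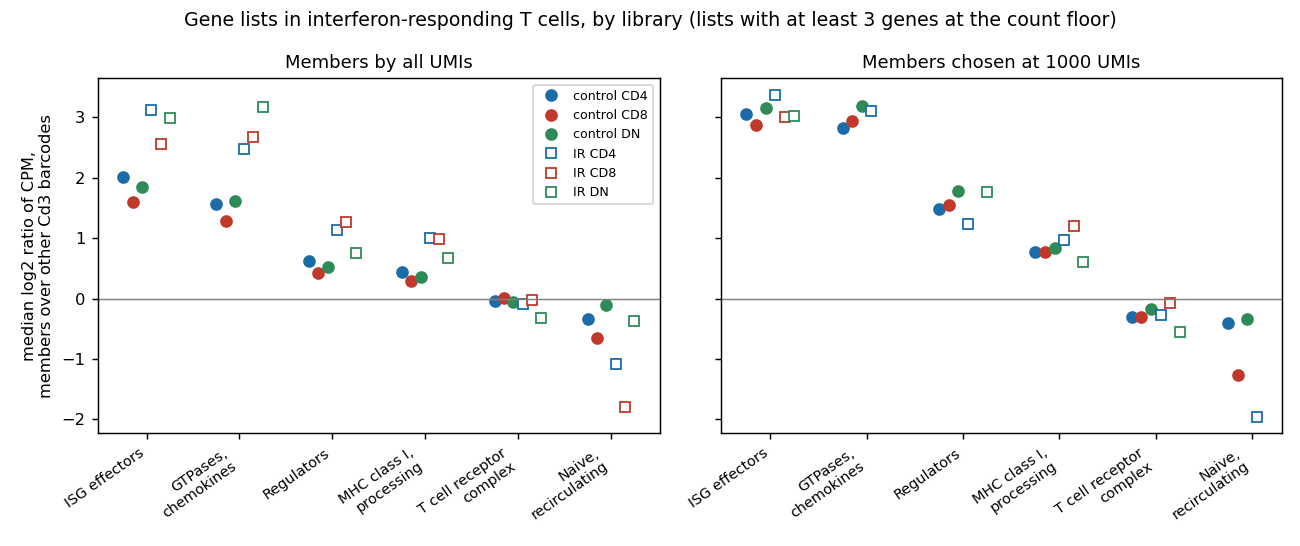
Median log2 ratio of selected cells (members) over other cells for 6 gene lists with at least 3 genes at the count floor, with a point per library, for cells chosen on all UMIs (left) and at 1000 UMIs (right). ISG effectors lie between 1.60 and 3.12 on the left and between 2.87 and 3.37 on the right, and the naive list between -1.79 and -0.11 on the left. The genes at the floor differ between libraries and between the panels.

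Across the libraries, 68 genes were at least 2-fold higher in every library where they met the floor, which had to be at least 4 of 6, out of 2513 genes tested (2.71%), and 0 were lower (0.00%). The floor of 20 UMIs stood at 90.6, 310 and 310 CPM in the selected IR CD4, CD8 and DN cells. A gene far below that level in the others met the floor there only by being at least 2-fold higher. For such genes the IR part of the call was fixed in advance, so their IR libraries add nothing to it. Since 4 libraries had to meet the floor, leaving out control CD4, control CD8, control DN or IR CD4 brought the 68 to 39, 40, 38 and 39. They comprised the 4 rule genes, 37 of 42 ISG effectors, 4 of 14 regulators, Irf7 and Pml among them, 12 of 14 GTPases and chemokines and 11 genes of none of these lists. By the median log2 ratio over libraries, the first were Ifit3 (6.21), Rsad2 (5.99), Ifit3b (5.78), Ifit1 (5.66), Isg15 (4.24), Cxcl10 (4.02), Cmpk2 (3.93), Slfn5 (3.68), Ifitm3 (3.37) and Usp18 (3.30). The 11 outside the lists were Phf11a, Phf11c, Ifi214, Mndal, Parp11, Trafd1, Trim12c, Jaml, Nampt, A330040F15Rik and A930037H05Rik, which are all of those found outside and were named after their values were seen. Several belong to families already represented: Phf11a and Phf11c with Phf11b, Ifi214 and Mndal with the Ifi200 genes on chromosome 1, and Parp11 with the ADP-ribosyltransferases. Reads of such paralogs can be shared, and Mndal overlaps Ifi203. A930037H05Rik (chr11:119448788-119491298, minus strand) overlaps Rnf213 (chr11:119393100-119487418, plus strand), and whether counting used strand is not given in the sources used here.

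Jaml and Nampt, among the 11, have roles other than in antiviral defence. Jaml, an adhesion receptor of T cells that binds CXADR on epithelium, stood at 41.1, 179 and 122 CPM in selected control cells and at 77, 341 and 77.4 CPM in IR against 13.6, 83.5 and 33.8 and 12.2, 51.2 and 32.2 CPM in the others. Nampt, the rate-limiting enzyme of NAD salvage, stood at 106, 73.9 and 87.1 CPM in control and 190.3, 139.5 and 77.4 CPM in IR against 41.3, 35.6 and 28.5 and 42.8, 42.3 and 34.9 CPM. Each met the floor in 4 libraries and was at least 2-fold higher there. The only IR library among them was CD8 for Jaml and CD4 for Nampt, with floors of 310 and 90.6 CPM. The others stood at 51.2 and 42.8 CPM there, so a level at least 2-fold higher followed from meeting the floor. Jaml rests on 17 and 5 UMIs in IR CD4 and DN and Nampt on 9 and 5 in IR CD8 and DN, too few for a ratio to be read.

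The promoter element was read in the same 68 genes, a number that was 38 to 40 without any 1 of 4 libraries as given above. Of them, 56 had a RefSeq promoter, and 34 of these (60.7%) held at least 1 match in either strand within the 250 bases before the start, 8 (14.3%) at least 2. Without the rule genes it was 30 of 52 (57.7%). Among all tested genes with a promoter it was 101 of 2010 (5.02%), and 936 of all 27025 genes with a listed promoter did (3.46%). The MHC class I list held it in 3 of 15 genes (20%), the regulators in 3 of 15 (20%) and the naive list in 0 of 7. Overlapping matches, as in Isg15, were counted separately. A match describes the letters of the window and not binding.

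Between the conditions, the difference in mean log2 ratio of the 3 IR and the 3 control libraries was read over 501 genes at the floor in all 6, of which 89 were past 2-fold in at least 1. The median difference of the 501 was -0.05. The largest rises were in Phf11b (1.77), Zbp1, a sensor of Z-form nucleic acids (1.51), Ifit1 (1.48), Gzmb (1.46) and Slfn5 (1.45). Ifit1 is a rule gene, whose level the threshold sets, and it is given as a description only, while 49 of the 94 Gzmb UMIs in IR CD4 lay in 1 cell. The largest falls were in Il7r (-1.14), Klf2 (-1.11), Eif3k (-0.85), Rgcc (-0.85) and A930015D03Rik (-0.70), of which Eif3k rests on 5 UMIs in IR DN, and Il7r and Rgcc on 8 and 11 UMIs in IR CD8, each in 7 cells. Among cells chosen at 1000 UMIs, Phf11b had log2 ratios of 2.90, 2.88 and 3.27 in control and 3.33, 3.48 and 3.27 in IR, and Zbp1 2.56, 2.85 and 2.93 in control and 3.34, 3.51 and 3.58 in IR. The gap between conditions was thus smaller for both genes at equal depth of choice, and the order stayed for Zbp1.

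Markers of other cell types were examined because such cells also express ISGs. In control CD4, 5 of the 6 myeloid markers at the floor were higher, and the 11 markers summed to 216 CPM against 111 CPM in the others. The excess lay in few barcodes: 29 Lyz2 UMIs in 5 cells, 65.5% of them in 1, and 70 C1qa UMIs in 5 cells, 61.4% in 1. Single cells also held 96.6% of 29 Ebf1 UMIs (a B cell factor) and 96.2% of 26 Emcn UMIs (endothelial). Leaving out barcodes with at least 3 UMIs of B cell markers or of myeloid markers other than Cst3, an alternative added after the data were seen, left 371 cells in control CD4 with myeloid sums of 98.5 against 97.3 CPM and 0 markers higher, and 50 of 53 ISG effectors still higher with a median of 2.00. In IR CD4 the myeloid sum was 349 against 234 CPM, and in the other 4 libraries it ran from 108 to 186 CPM against 105 to 173 CPM. In IR CD8 and IR DN, 9 and 10 of 11 myeloid markers were at 0. Plasmacytoid dendritic cell, NK cell, tubule and platelet markers were at 0 in the selected IR DN cells. B cell markers summed to 12.9 CPM against 3.80 in control CD4, and to 2.54 to 31.0 CPM against 3.37 to 43.6 CPM, lower in each, in the other 5 libraries. NK cell markers summed to 0 to 124 CPM against 10.53 to 93.2 (in IR CD4 49.8 against 16.3 on 11 UMIs and in IR CD8 124 against 44.4 on 8), endothelial markers to 31.0 to 172 CPM against 48.0 to 129.99, and plasmacytoid dendritic cell markers to 0 to 58.9 CPM against 41.3 to 55.2. Erythroid markers, chiefly hemoglobin, were at 18.1 CPM against 218 in IR CD4 and at 0 against 431 in IR CD8, and at 0.565 to 15.5 CPM against 1.74 to 21.3 CPM in the other 4 libraries. Among the others, only 4 barcodes in IR CD4 and 2 in IR CD8 held at least 3 erythroid UMIs. The sums of 218 and 431 CPM thus lay largely in few barcodes, and no population-wide difference is read from them. Tubule markers summed to 0 to 3.06 CPM against 1.90 to 2.95 CPM, and platelet markers to 0 to 0.565 CPM against 0.121 to 2.36 CPM. The part of other cells in the results was not tested beyond the removal above.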

How the data were processed

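The deposited matrices held raw counts of UMIs for every gene in every barcode, made by the authors with Cell Ranger on mm10 and not normalized. The submitters' processing notes name version 6.0.1, whereas the file headers name 5.0.1 for the control and 6.0.1 for the IR libraries. The barcode lists were already filtered, and held 4705 to 10885 barcodes and 7787822 to 89497612 UMIs per library. Groups came from the sample titles.

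The filters and the rule given above were applied to each library, and UMIs were summed over selected and over other Cd3 barcodes. CPM was taken over features without 13 mitochondrial genes, 90 ribosomal protein genes and Malat1. Ratios set a count of 0 to 3 counts. With 1 library per group no p-value was computed, and intervals are exact 95% Poisson (sums) or Clopper-Pearson (shares) intervals. Those of the ratios of IR to control shares are instead 95% intervals from a normal approximation on the log scale, which is rough at small counts. Doublets were kept, and no caller was run. Thinning was random without replacement, with a fixed seed. The rule, the gene lists and the genes named were chosen with earlier results of these data known. The genes named were those of the interferon lists, examples of the other lists, the 10 with the largest median ratio over libraries and the 5 in each direction that differed most between conditions. Coordinates came from GENCODE M21, where 32158 of 32285 features were matched by identifier, and promoters from RefSeq. Alternatives were other thresholds, floors, filters and scalings. Counting was tested on simulated data. Python 3.11.15, numpy 2.4.6, scipy 1.17.1, pandas 2.3.3 and, for TMM scaling, edgeR 4.0.16 in R 4.3.3 were used. Values of some genes on the lists are left out of the text and figures.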

Additional observations from a re-analysis of the deposited data

Results flagged for a closer look

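The barcodes that passed the filters without any Cd3 UMI entered no comparison above. In IR CD4, 5 of 452 of them (1.11%, 95% Clopper-Pearson interval 0.360% to 2.56%) held at least 3 rule-gene UMIs, above the 1 of 251 (0.398%, 0.0101% to 2.20%) in control CD4. In IR DN it was 8 of 423 (1.89%, 0.820% to 3.69%), above the 1 of 78 (1.28%, 0.0325% to 6.94%) in control DN. Both are singled out because the IR share in data outside the main measurement lay above the control share. In each pair the intervals overlapped, with 1 library per group the difference was not tested, and in CD8 the order was the other way, with 3 of 166 in control (1.81%) and 3 of 414 in IR (0.725%). No group had the 4 samples that a check for outlying samples needs.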

How the results depend on the processing

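The number of selected cells (1432) was 2472 with at least 2 rule-gene UMIs, 758 with at least 5, 223 when chosen at 1000 UMIs and 608 without every barcode that held a UMI of another cell type's marker. It stayed within 1.5 times under the other 6 alternatives. The IR to control ratio of shares at 1000 UMIs was 0.184 in CD8 and 0.425 in DN for at least 5 rule-gene UMIs, 0.517 (0.358 to 0.747) in CD8 for at least 2, and 0.245, 0.143 and 0.245 in CD4, CD8 and DN without thinning. The ratios for at least 5 rest on 2 IR CD8 and 4 IR DN cells. The cause of the changes with the threshold was not tested, and the setting without thinning compares libraries of unequal depth. The median log2 ratio of the ISG effectors over libraries (2.29) kept its direction under all 17 alternatives and was 3.03 for cells chosen at 1000 UMIs. The 68 genes higher in every library became 45 at a floor of 50 UMIs and 4288 with no floor, where a count of 0 is set to 3 counts and so lies high by construction, and 54 with TMM scaling, all 54 among the 68. Leaving out 1 library at a time gave 38 to 68 genes. It gave 38 to 40 without any 1 of control CD4, control CD8, control DN or IR CD4, since 4 libraries had to meet the floor. The 0 genes lower in every library became 1 with at least 2 rule-gene UMIs (Ccl1) and 1 when chosen at 1000 UMIs (Lef1). No paired test was run: the rule itself made the contrast of selected with other cells, and IR and control were not paired by sort. In IR CD8 and DN, 622 and 655 genes met the floor against 9618 to 10029 in control. These libraries were shallower and also held fewer selected cells (45 and 41 against 377 to 474), which were not separated.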
